A study of Ipomoea batatas with 12 samples.

Results

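The drought main effect is the average difference that PEG-imposed drought made to sweetpotato gene expression, taken over plants held with and without heat. It was measured as 6 drought libraries against 6 libraries without drought, which together are all 12 libraries of the series. Drought was given as 30% PEG6000 in the nutrient solution, and heat as 42 °C. The drought libraries are those of drought alone (DR, 3 libraries) and of drought with heat (DH, 3 libraries), and the others are unstressed plants (CK, 25 °C, 3 libraries) and heat alone (HT, 3 libraries). All plants were of the purple-fleshed cultivar Xuzishu 8, were moved from the field to hydroponic culture before treatment, and gave RNA of leaves and storage roots that was mixed in equal amounts. In the fit drought was 1 factor and heat a second, with no interaction term, so that a gene had to differ with drought beyond what heat accounted for.

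Plants that lose water build up abscisic acid, which closes the stomata and switches on a set of protective genes. PEG lowers the water potential around the root and so withholds water without drying the plant in air. Small heat shock proteins hold other proteins in solution when they unfold, osmoprotectants such as raffinose retain water, and stored lipid can be turned to sugar through the glyoxylate cycle, while growth and wall building usually slow down.

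CK was grown in a chamber of its own, so in DR against CK drought and chamber cannot be told apart, whereas the methods give no such difference between DH and HT. Both the main effect and the interaction hold the difference of DR against CK, so this limit applies to them too. The methods give no temperature for DR. Tissue was taken at several times of treatment, and each library is a pool. The methods name biological replicates at sampling but do not say whether the 3 libraries of a group hold different plants, and every p-value therefore refers to the spread among these 12 pools alone, which may be technical. Since leaf and root RNA were pooled, fewer cells of a type and less RNA per cell cannot be told apart. The tables list 50592 loci, of which between 13653 (DH2) and 33410 (CK3) were above 0 in a library. The table of DR2 stops before 1519 loci with MSTRG names, and those were fitted on the other 11 libraries. The 10 most abundant genes held 54.9% to 89.7% of the summed FPKM in drought libraries, against 34.7% to 75.6% in libraries without drought. Leaf markers (6 genes of chlorophyll synthesis and the Calvin cycle) summed to 483 to 1464 FPKM in DR, 748 to 3873 in CK, 24.1 to 293.7 in DH and 89.2 to 206 in HT. Storage root markers (4 genes of starch metabolism) summed to 6.45 to 45.3 FPKM in DR, 33.6 to 1751 in CK, 0.50 to 28.7 in DH and 1.85 to 20.2 in HT, and CK3 alone held the 1751. The leaf markers were all above 0 in both DR libraries that list all 6 and in the 3 CK libraries, while up to 3 of them were at 0 in a DH or HT library.

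Drought raised a small set of genes by large amounts and lowered none past the threshold. Of 12295 genes tested, 17 were raised (0.138%) and 0 were lowered at an adjusted p under 0.05 (limma, Benjamini-Hochberg) and a log2 change beyond 1. The 17 had log2 fold changes of FPKM + 1 from 3.75 to 6.58. At an unadjusted p under 0.05 stood 816 genes (6.64%), 304 with a positive (2.47%) and 512 with a negative change (4.16%), and the median change of all genes was -0.31. With upper-quartile scaling the same split was 700 positive and 351 negative, and the median was -0.02. The median standard error of a gene's change was 0.64. Of the 17 raised genes 8 carry a symbol: both copies of a small heat shock protein (SHSP-2), both copies of a basic chitinase (CHIT1B), EDL3, At3g01520, gluA and 1 copy of ICL2.

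**Figure D1:**
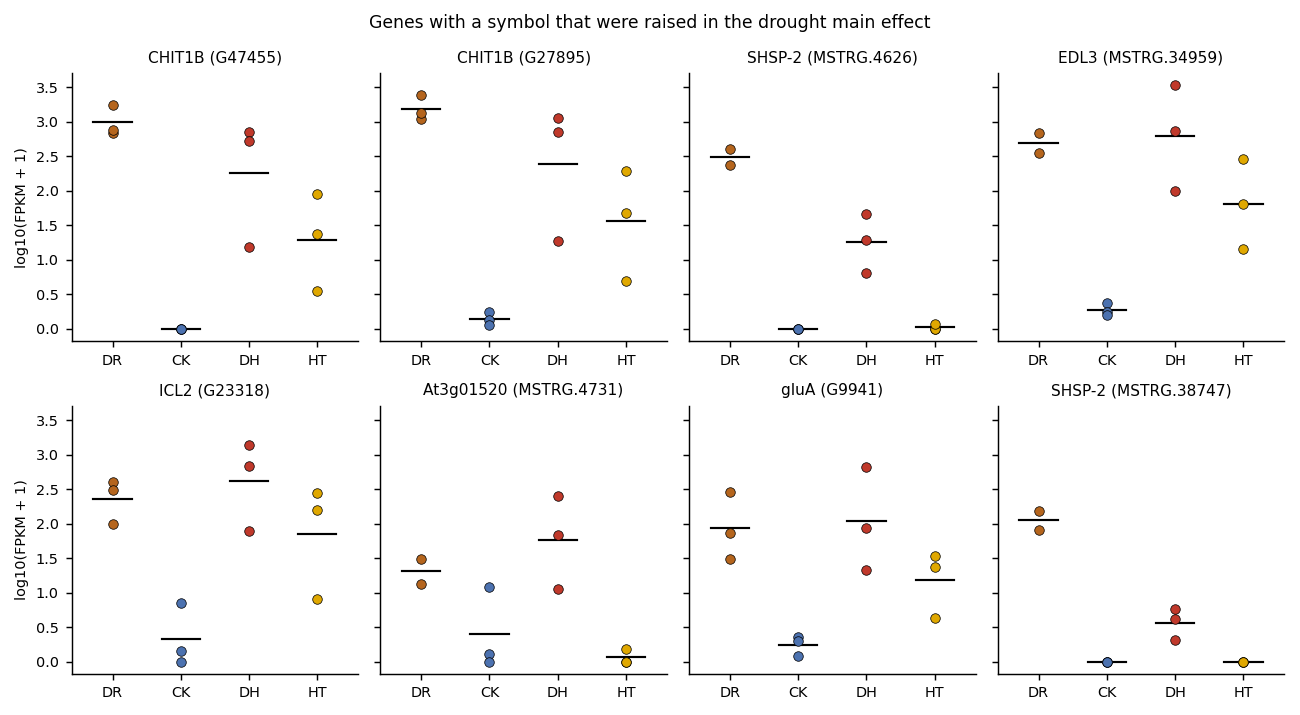
FPKM of the 8 raised genes that carry a symbol, as log10(FPKM + 1), in each library of DR, CK, DH and HT (points), with the mean on that scale as a bar. DR points lie far above CK points in every panel except At3g01520, where CK1 reached 11 FPKM. DH2 is the lowest DH point in all 8 panels, and DR2 is missing for the genes with MSTRG names.

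Both SHSP-2 loci, which encode a small heat shock protein, a chaperone that binds unfolding proteins, were raised. MSTRG.4626 had the smallest adjusted p of all raised genes (limma), and the call of MSTRG.38747 was less stable. SHSP-2 (MSTRG.4626) had 238 and 405 FPKM in DR1 and DR3, against 0 in all 3 CK libraries. It had 45.5, 5.40 and 18.7 FPKM in DH, against 0, 0 and 0.17 FPKM in HT. Every drought library was above every other one, and its drought difference on the log2(FPKM + 1) scale was 5.96 ± 0.79 (SE; limma, adjusted p = 0.00093). This call held when any 1 of the 12 libraries was left out (5.36 to 6.56). SHSP-2 (MSTRG.38747) was listed at 0 in all 6 libraries without drought and had 79.8 and 152 FPKM in DR1 and DR3 and 3.16, 1.04 and 4.81 FPKM in DH. Its drought difference was 4.06 ± 0.78 (limma, adjusted p = 0.029), and it did not pass without CK1, CK2, CK3, HT1, DR1, DR3 or DH1. The files do not show how reads shared by the 2 SHSP-2 loci were divided, so the level of each is uncertain.

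Among the other chaperones the drought main effect gave no call. Of 14 chaperones and heat regulators tested only the 2 SHSP-2 loci were raised, against 0.138% of all genes, and the median drought change of the list was 0.22, against -0.31 for all genes. The median heat change of the same 14 genes was 2.71. Their median was 1.98 in DR against CK (0.07 for all genes), with 13 positive, against 54.1% of all genes. In DH against HT it was -1.15 (-0.65 for all genes), with 3 positive, against 19.1% of all genes. At an unadjusted interaction p under 0.05 stood 8 of the 14, against 5.26% of all genes, and 0 passed. HSP17.5-M, HSP15.7 and HSP70-5 are named outside the rule for naming genes. HSP17.5-M (MSTRG.30592), a small heat shock protein by its symbol, had a drought change of -0.19 and a heat change of 4.52. HSP15.7 (G27775), a small heat shock protein, had a drought change of -0.34 and a heat change of 3.90. HSP70-5 (G13246), a member of the HSP70 chaperone family, had 0.19 for drought and 3.39 for heat. The SHSP-2 loci had heat changes of -1.78 (MSTRG.4626) and -2.19 (MSTRG.38747) that did not pass. Both were at or near 0 in CK and HT, so heat could not lower them without drought. The negative values come from DH lying below DR in a fit with no interaction term. Drought less heat came to 7.74 for MSTRG.4626 (limma, adjusted p = 0.0085) and 6.25 for MSTRG.38747 (limma, adjusted p = 0.042), both past the threshold. These differences include the negative heat values and are larger for it. HSP21 (MSTRG.27569), the plastid small heat shock protein, had 72.1 and 422 FPKM in DR1 and DR3, against 1.13, 0 and 0 FPKM in CK. It had 147, 86.9 and 833 FPKM in DH, against 706, 49.1 and 720.3 FPKM in HT. HSP21 was above all CK values in every stressed library, and DH and HT overlapped. Its log2 change passed in DR against CK (7.10; limma, adjusted p = 0.0053), was -0.41 in DH against HT, and the main effect of 2.92 ± 1.13 did not pass (limma, adjusted p = 0.61). The interaction did not pass for HSP21 (limma, adjusted p = 0.28). MBF1C (G15814), HSP17.4B (MSTRG.37536) and HSP90 (G17562) had drought changes of 0.96, 0.95 and -0.93, and heat changes of 2.72, 3.29 and -1.19. HSP17.4B had 4.07 in DR against CK and -1.55 in DH against HT, neither past the threshold.

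**Figure D2:**
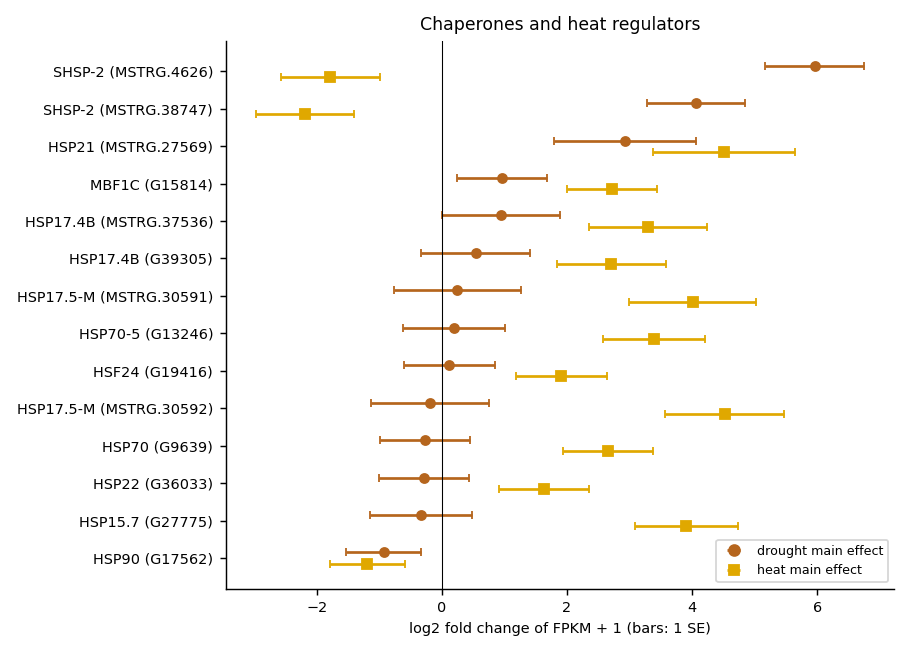
Drought and heat main effects (log2 fold change of FPKM + 1, points, with 1 SE as bars) for the 14 chaperones and heat regulators. The 2 SHSP-2 loci lie at 5.96 and 4.06 for drought and below 0 for heat, while 11 of the other 12 genes lie above 0 for heat, HSP90 being the exception.

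The largest fold changes were those of 2 CHIT1B loci, which encode basic endochitinases, enzymes that cut the chitin of fungal walls and are made by many plants under stress. CHIT1B (G47455) had 698, 767 and 1783 FPKM in DR and was listed at 0 in all 3 CK libraries. Its DH values were 721, 14.4 and 532 FPKM, against 22.9, 2.53 and 87.6 FPKM in HT. DR and CK were far apart, whereas DH2 fell within the HT range. Its drought change was 6.58 ± 1.10 (limma, adjusted p = 0.011), and it did not pass without CK2, CK3 or DR1. CHIT1B (G27895) had 1102, 1360.1 and 2479 FPKM in DR, against 0.77, 0.32 and 0.12 FPKM in CK. Its DH values were 1148, 17.6 and 699.9 FPKM, against 47.1, 4.01 and 194 FPKM in HT. Its drought change was 6.45 ± 1.17 (limma, adjusted p = 0.024), and it did not pass without CK2, CK3, DR1, DR3 or DH1. The 2 loci were high and low in the same libraries, and how shared reads were split between them is not known. The third chitinase of the list, EP3 (MSTRG.17467), had a drought change of 0.45 and did not pass, so 2 of 3 chitinases were raised, against 0.138% of all genes.

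Among genes of abscisic acid and ethylene 1 of 5 was raised, against 0.138% of all genes, and all 5 had a positive change (median 2.81, against -0.31 for all genes). The raised gene was EDL3 (MSTRG.34959), an F-box protein that in Arabidopsis is induced by abscisic acid and promotes its signalling. EDL3 had 357 and 697 FPKM in DR1 and DR3, against 1.33, 0.73 and 0.57 FPKM in CK. It had 3374, 97.3 and 741 FPKM in DH, against 285, 13.4 and 62.9 FPKM in HT. Its drought change was 5.42 ± 1.0 (limma, adjusted p = 0.024), it was lost without CK2, CK3, DR1, DR3 or DH1, and heat gave 2.99 in the same fit without passing. CYP707A2 (MSTRG.35318), a hydroxylase that breaks down abscisic acid, had 4.72 and 9.22 FPKM in DR1 and DR3, against 0.28, 0 and 0 FPKM in CK. In DH it had 38.0, 0.80 and 6.78 FPKM, against 1.25, 0 and 1.32 FPKM in HT, and its change of 2.49 ± 0.71 did not pass (limma, adjusted p = 0.28).

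The 2 ethylene response factors passed in DR against CK, where 0.586% of all genes were raised, and not in the main effect. RAP2-3 (G11018), a transcription factor of the low-oxygen and ethylene response, had 836, 363 and 603 FPKM in DR, against 8.56, 17.9 and 7.71 FPKM in CK. In DH it had 1922, 395 and 624 FPKM, against 827, 1369.7 and 186 FPKM in HT. DR and CK did not overlap, and DH and HT did. The log2 change of DR against CK was 5.61 (limma, adjusted p = 0.0042), that of DH against HT was 0.39, and the main effect of 3.00 ± 0.88 did not pass (limma, adjusted p = 0.29). ERF071 (G13450), of the same factor family, had 125, 42 and 106 FPKM in DR, against 2.24, 1.81 and 1.46 FPKM in CK. In DH it had 496, 68.7 and 93.7 FPKM, against 119, 255 and 22.5 FPKM in HT, with a change of 4.88 in DR against CK (limma, adjusted p = 0.020) and 0.73 in DH against HT, and its main effect of 2.81 did not pass (limma, adjusted p = 0.30). The interaction did not pass for RAP2-3 or ERF071 (limma, adjusted p = 0.36 and 0.72), nor for EDL3 (0.80).

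At3g01520 (MSTRG.4731) is named after an Arabidopsis gene for a universal stress protein, a family of small nucleotide-binding proteins. It had 254, 10.3 and 66.6 FPKM in DH, against 0.51, 0 and 0 FPKM in HT, and 29.6 and 12.5 FPKM in DR1 and DR3, against 11, 0.28 and 0 FPKM in CK. DH and HT did not overlap, while CK1 lay above DH2. Its change was larger with heat (5.66 in DH against HT) than without (3.03 in DR against CK), and the interaction did not pass (limma, adjusted p = 0.90). The main effect was 4.49 ± 0.86 (limma, adjusted p = 0.029), and it did not pass without CK2, CK3, HT1, DR1, DH1 or DH3. Of 9 other transcription factors in the lists 0 were called. At an unadjusted p under 0.05 stood 2 with a positive and 1 with a negative change, against 2.47% and 4.16% of all genes. The largest change among them was that of TGA6 (MSTRG.21623), a bZIP factor of salicylic acid signalling in Arabidopsis. TGA6 had 4.31 and 38.6 FPKM in DR1 and DR3, against 0 in all CK libraries, and 9.88, 0.64 and 7.01 FPKM in DH, against 0, 0 and 1.39 FPKM in HT. Its drought change was 2.81 ± 0.70 (limma, adjusted p = 0.14). WRKY6 (MSTRG.26557), a WRKY factor, had a change of 2.40 that did not pass (limma, adjusted p = 0.35).

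The glyoxylate cycle lets a plant make sugar from the acetyl-CoA of fatty acids, through isocitrate lyase (ICL2) and malate synthase (MLS). Primers for qRT-PCR of a gene of each enzyme are shown with the locus named for each pair, in lower case and 5′ to 3′. The sequences are those listed by the study. Whether a pair also matches another locus was not tested.
ICL_qF (G23318): cgtacgatacggtgcctaataa
ICL_qR (G23318): cctacctgctcatgttcattct
MLS_qF (G42670): ggagttcagaggccatgttaag
MLS_qR (G42670): gtatttggtggcgggaatca

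ICL2 (G23318) had 403, 97.9 and 307 FPKM in DR, against 6, 0.43 and 0 FPKM in CK. It had 1395, 76.6 and 686 FPKM in DH, against 155, 7.21 and 281 FPKM in HT. DR and CK did not overlap, and DH2 lay below HT1 and HT3. The drought change was 4.65 ± 0.97 (limma, adjusted p = 0.045), the weakest of the 17 calls. It passed with all 12 libraries, without HT3 and without DH2, and was lost when any other single library was left out. The other copy, ICL2 (G23306), had 3.64, 5.87 and 20.6 FPKM in DR, against 0.05, 0 and 0 FPKM in CK, and 12.1, 0.13 and 5.80 FPKM in DH, against 0, 0 and 3.71 FPKM in HT. Its change of 2.30 did not pass (limma, adjusted p = 0.30). MLS (G42670) had 931, 1524 and 1408 FPKM in DR, against 6.10, 9.56 and 21.5 FPKM in CK. In DH it had 1752, 116 and 1265 FPKM, against 2576, 138 and 451 FPKM in HT. DR and CK did not overlap (log2 change 6.73; limma, adjusted p = 0.0031), DH and HT did (0.23), and the interaction did not pass (limma, adjusted p = 0.34). Its main effect of 3.48 ± 1.03 did not pass (limma, adjusted p = 0.30). Over the 3 glyoxylate genes 1 was raised, against 0.138% of all genes, and the median change was 3.48, against -0.31.

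Genes of oxylipin synthesis, which includes the route to jasmonate, gave 0 calls among 5. At an unadjusted p under 0.05 stood 3, all positive, against 2.47% of all genes. The other 2 were below 0, against 71.3% of all genes, among them OPR3 (G20440) with -1.02 (limma, adjusted p = 0.84). LOX1.5 (MSTRG.8903), a lipoxygenase, had 31.5 and 44.8 FPKM in DR1 and DR3, against 8.41, 1.15 and 0.45 FPKM in CK. It had 281, 7.27 and 58.1 FPKM in DH, against 1.42, 1.98 and 5.76 FPKM in HT. DR exceeded CK and DH exceeded HT in every library, and only DH2 fell below the highest library without drought (CK1). The change was 3.64 without heat and 3.82 with it, and the main effect of 3.74 ± 0.82 missed the threshold (limma, adjusted p = 0.076). It passed under upper-quartile, quantile and median-of-ratios scaling, and without CK1, HT3 or DH2. LOX2.1 (G9582), also a lipoxygenase, and ACX2 (G20012), an acyl-CoA oxidase of fatty acid breakdown, had changes of 2.40 (limma, adjusted p = 0.38) and 2.55 (limma, adjusted p = 0.34).

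Among enzymes that cut wall polysaccharides 1 of 10 tested was raised, against 0.138% of all genes, and the median change was 0.72, against -0.31 for all genes. This was gluA (G9941), a beta-glucosidase. It had 29.3, 71.8 and 283 FPKM in DR, against 1.26, 1.01 and 0.20 FPKM in CK, and 666, 20.6 and 85.4 FPKM in DH, against 33.0, 3.32 and 22.5 FPKM in HT. DR lay above CK in every library, and DH2 lay between the HT libraries. The change was 4.22 ± 0.85 (limma, adjusted p = 0.035), and it did not pass without CK1, CK2, CK3, DR1, DR2, DR3 or DH1. The 2 loci of MAN2, an endo-mannanase, had changes of 3.38 (MSTRG.33887; limma, adjusted p = 0.21) and 3.27 (MSTRG.33886; limma, adjusted p = 0.38). The 3 loci of BXL1, a beta-xylosidase, lay between -0.62 and 0.24. In starch metabolism the 3 loci of BAM1, a beta-amylase that releases maltose, lay from 2.25 to 2.79. BAM1 (G29406) had 78.7, 15.3 and 35.5 FPKM in DR, against 7.13, 2.08 and 2.61 FPKM in CK, and 576, 12.3 and 52.7 FPKM in DH, against 16.7, 2.00 and 36.6 FPKM in HT. It did not pass (change 2.79 ± 0.83; limma, adjusted p = 0.30), and 0 of 8 starch and sucrose genes tested were called. That list had a median of -0.68, against -0.31 for all genes, with 5 of the 8 below 0, against 71.3% of all genes.

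Raised genes without a symbol numbered 9. The pair with the largest changes were MSTRG.21000 and G34013. MSTRG.21000 had 304 and 381 FPKM in DR1 and DR3, against 0.11, 0 and 0 FPKM in CK, and 172, 5.44 and 80.9 FPKM in DH, against 3.88, 0 and 0.77 FPKM in HT. Every drought library was above every other one, the change was 6.19 ± 0.88 (limma, adjusted p = 0.0015), and it passed whichever library was left out. G34013 had 744, 1055 and 1782 FPKM in DR, against 0.66, 0.23 and 0 FPKM in CK, and 2139.6, 23.3 and 161 FPKM in DH, against 313, 14.9 and 18.8 FPKM in HT. Its change was 5.96 ± 1.17 (limma, adjusted p = 0.030), DH and HT overlapped, and it was lost without CK1, CK2, CK3, DR1, DR2, DR3 or DH1.

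Over all genes 15 (0.122%) had every drought library above every other library, and 20 (0.163%) had every drought library below. Of the 17 raised genes 5 were of the first kind: SHSP-2 (MSTRG.4626 and MSTRG.38747), MSTRG.21000, G19613 and G40752. The last 2 were chosen for mention after their values were seen, because they were abundant also in CK. G19613 had 284, 1734 and 1959 FPKM in DR, against 30.2, 58.3 and 50.5 FPKM in CK, and 5005, 129 and 1182 FPKM in DH, against 86.5, 5.30 and 55.8 FPKM in HT. Its log2 change was 4.44 in DR against CK and 4.86 in DH against HT, and the main effect of 4.65 (limma, adjusted p = 0.024) was lost without CK2, CK3, DR2, DR3 or DH1. G40752 had 312, 931 and 1107 FPKM in DR, against 32.7, 33.8 and 42.5 FPKM in CK, and 4757, 127 and 1051 FPKM in DH, against 127, 64.2 and 47.3 FPKM in HT. The lowest drought value, 126.9 FPKM in DH2, was close to the highest value without drought, 126.6 FPKM in HT1. Its main effect was 3.88 (limma, adjusted p = 0.035), and it passed without HT2, HT3 or DH2 but with no other library left out.

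No gene was lowered past the threshold, and the lists with negative medians are given as values. Of 9 shikimate and phenylpropanoid genes, which lead to lignin and flavonoids, 8 were tested and all 8 had a negative change, against 71.3% of all genes, with 7 at an unadjusted p under 0.05, against 4.16% of all genes. Their median was -1.95, against -0.31 for all genes, and it lay between -2.07 and -1.52 under 5 other scalings. PALA (G292), the ammonia-lyase that commits phenylalanine to the pathway, had 2.78, 0.41 and 5.15 FPKM in DR, against 391, 127 and 35.6 FPKM in CK. Under DH it had 0.31, 0.50 and 0.09 FPKM, against 0.72, 0.14 and 5.23 FPKM in HT. DR lay below CK throughout, and so did DH and HT, with 5.23 FPKM in HT3 above every DR library. PALA gave -5.26 in DR against CK (limma, adjusted p = 0.0072), -0.84 in DH against HT and a main effect of -3.05 ± 0.82 (limma, adjusted p = 0.21). 4CL3 (G20529), a coumarate-CoA ligase, had a main effect of -2.16 (limma, adjusted p = 0.31) with -2.50 without heat and -1.82 with it. It had 16.7, 3.30 and 9.52 FPKM in DR, against 97.8, 36.0 and 38.9 FPKM in CK, and 3.15, 3.41 and 6.27 FPKM in DH, against 40.5, 8.22 and 14.4 FPKM in HT. For 4CL3 the DR libraries were all below CK and the DH libraries all below HT.

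Flavonoid and anthocyanin genes, which make the pigments of this purple cultivar, had a median of -1.97, with 8 of 9 tested negative, against 71.3% of all genes, and 0 called. CYP75B2 (G45681), a flavonoid 3'-hydroxylase, had 6.68, 0.58 and 1.13 FPKM in DR, against 70.0, 15.2 and 38.5 FPKM in CK, and 0.23, 0.94 and 0.21 FPKM in DH, against 1.14, 4.98 and 1.46 FPKM in HT. Both pairs of groups were apart, and the change of -2.37 ± 0.69 did not pass (limma, adjusted p = 0.29). CHSE (G16435), a chalcone synthase, spread from 2.99 to 640.5 FPKM within CK and had 9.10, 0.47 and 0.42 FPKM in DR, so its change of -2.18 carried an SE of 0.94. For genes of cell expansion the drought change was below 0 in all 17 tested, against 71.3% of all genes. The 10 genes for expansins and xyloglucan endotransglucosylases (XTH), which loosen the wall, had a median of -1.20, and the 7 of 8 cellulose and microtubule genes that were tested had a median of -1.53. Without CK1 only 8 of the 10 wall-loosening genes were below 0, without DR2 9 of 10, and without CK3 6 of the 7 cellulose and microtubule genes. KOR (G15032), an endoglucanase of cellulose synthesis, had a change of -2.10 ± 0.69 (limma, adjusted p = 0.41). The 3 aquaporins, which carry water through membranes, had a median of -1.55 with 0 at an unadjusted p under 0.05, and PIP2-7 (G27911) ranged from 7.63 to 11119 FPKM within CK. These counts describe lists that were drawn from tables made on the same samples, so they are not independent evidence of a direction.

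**Figure D3:**
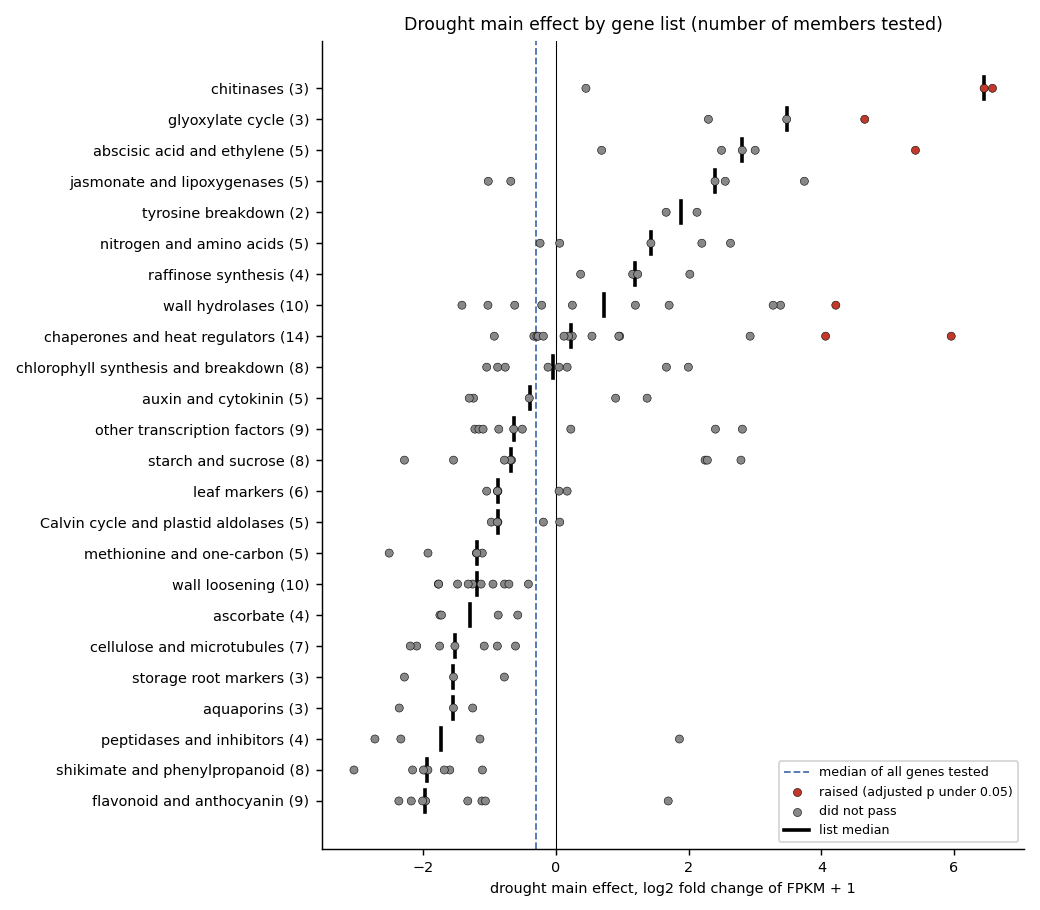
Drought main effect (log2 fold change of FPKM + 1) of each tested member of the 24 gene lists, with the list median as a bar and the median of all genes (-0.31) as a dashed line. The 7 red points of chitinases, glyoxylate cycle, abscisic acid and ethylene, wall hydrolases and chaperones are the list members that were raised, and none of the points at the left passed.

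SAHH (G12408), an S-adenosylhomocysteine hydrolase of the methyl cycle, came closest to a lowered call among the list members. It had 1.82, 0.79 and 0.86 FPKM in DR, against 17.3, 16.3 and 30.6 FPKM in CK, and 1.26, 0.26 and 0.23 FPKM in DH, against 12.6, 1.32 and 2.66 FPKM in HT. DR was below CK and DH below HT in every library, and only DR1 exceeded the lowest HT library. Its change was -2.52 ± 0.64 (limma, adjusted p = 0.15). SBT1.8 (G20777), a subtilase, had 1.22, 3.16 and 2.50 FPKM in DR, against 25.4, 87.6 and 184 FPKM in CK, with -4.57 in DR against CK (limma, adjusted p = 0.016) and -0.89 in DH against HT. BMY1 (G48653), the storage-root beta-amylase used here as a root marker, had a main effect of -2.29 ± 0.99 (limma, adjusted p = 0.69) and reached 753 FPKM in CK3. The 3 root markers tested had a median of -1.55, and -0.70 without CK3, HT2 and DH2. The 6 leaf markers had a median drought change of -0.88 and 0 calls. The part that tissue makeup had in these lists was not tested.

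The main effect is a mean of 2 differences that rest on separate libraries. Drought without heat (DR against CK) raised 72 genes (0.586%) and lowered 24 (0.195%). With the replicate number as a block these counts were 110 and 41. Deviations of same-numbered CK and DR libraries from their group means correlated at 0.19 to 0.60. CK3 correlated at 0.19 with DR3 and at 0.50 with DR2, so the numbers do not clearly pair them. Drought on top of heat (DH against HT) raised 0 and lowered 0, with 597 genes (4.86%) at an unadjusted p under 0.05 and a smallest adjusted p of 0.42 (limma). The median change of all genes was 0.07 in DR against CK and -0.65 in DH against HT, where 80.7% of genes were negative. Across the 11208 genes listed in all 12 libraries the correlation of the 2 differences was r = 0.16 (Spearman's rho 0.09), as a description over genes that are not independent. With a library left out, 27 (without CK3) to 105 (without HT2) genes were raised and 3 (without DR2) to 38 (without CK1) lowered in DR against CK. In DH against HT the count of lowered genes was 52 without HT2 and 0 without any other library, and up to 3 were raised. Of the 72 genes raised in DR against CK 50 (69.4%) were positive in DH against HT, against 19.1% of all genes, and 13 were at an unadjusted p under 0.05. Their median was 5.76 in DR against CK and 0.54 in DH against HT. Of the 24 lowered genes 18 (75%) were negative in DH against HT, against 80.7% of all genes, and 0 reached an unadjusted p under 0.05, so their share was close to the background. In the other direction, 55 of the 56 genes (0.455% of those tested) that were positive in DH against HT at an unadjusted p under 0.05 were also positive in DR against CK (98.2%, against 54.1% of all genes), and 256 of 541 negative ones (4.4% of those tested) were also negative (47.3%, against 45.8%).

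**Figure D4:**
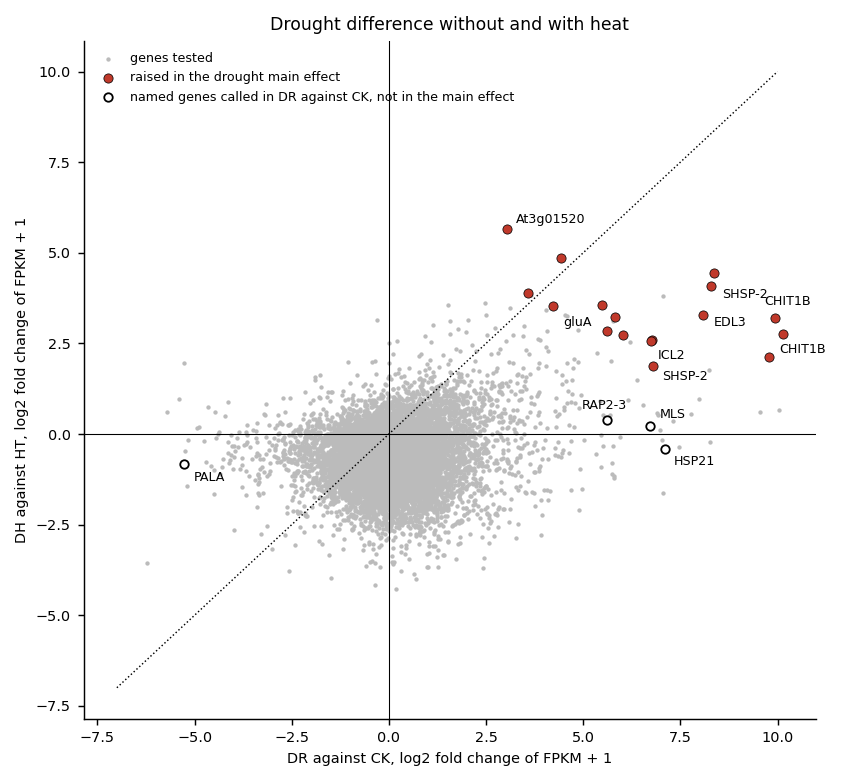
Log2 fold change of FPKM + 1 for DR against CK (x axis) and DH against HT (y axis) for every gene tested (grey), with the 17 raised genes in red. The red points lie at the upper right, 14 of them below the dotted line of equal change, and MLS, RAP2-3 and HSP21 lie far right at about 0 on the y axis.

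All 17 raised genes were positive in both differences, with medians of 6.74 in DR against CK and 3.22 in DH against HT. Since the rule for the main effect uses both, this is a description. In 14 of the 17 the difference with heat was the smaller one. The exceptions were At3g01520, G19613 and MSTRG.9010, of which the last is named because of this count. The interaction of drought with heat passed for 0 genes, with 647 (5.26%) at an unadjusted p under 0.05 (and for 50 genes without HT2, 6 without CK1 and 4 without DH1), so no gene was called for a different drought change with heat than without. Among the 17 raised genes 9 were at an unadjusted interaction p under 0.05, and the smallest adjusted p was 0.28 (limma).

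The drought and heat changes were also set against each other in the same fit. Drought less heat passed for 5 genes, 3 positive (0.0244%) and 2 negative (0.0163%). The positive ones were both SHSP-2 loci and MSTRG.21000 (6.94; limma, adjusted p = 0.042), so 3 of the 17 raised genes passed. The difference was positive in all 17. They were chosen for a large drought change in the same fit, which favours a positive difference, so both counts are descriptions. The negative ones, G15958 and G42963, carry no symbol. G15958 had 35.7, 5.08 and 9.45 FPKM in DR, against 198, 45.6 and 27.6 FPKM in CK, and 152, 106 and 80.2 FPKM in DH, against 606, 758 and 581 FPKM in HT. Its drought change was -2.42 and its heat change 3.19. G42963 had 62.7, 3.73 and 8.25 FPKM in DR, against 394, 105 and 61.3 FPKM in CK, and 131, 87.1 and 76.9 FPKM in DH, against 479.5, 524 and 1115 FPKM in HT. In both genes the drought and heat changes had opposite signs, and DH lay below HT in every library. The drought change alone did not pass for either (limma, adjusted p = 0.29 and 0.13). Without HT1 or without DR3 no gene passed for drought less heat, and over all single libraries left out the count lay between 0 and 9.

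Single libraries weighed heavily on the number of calls. Without CK2 or without CK3 only 2 genes were raised, SHSP-2 (MSTRG.4626) and MSTRG.21000, and without DH2, the library with the fewest loci above 0, 64 were raised. All 17 genes were among those 64. Without DR1, DR2, DR3 or DH1 between 3 and 8 genes were raised, without CK1, HT1, HT2 or DH3 between 10 and 22, and without HT3 43. Lowered genes appeared only without HT2 (6), HT3 (3) or DH2 (1). Leaving out CK3, HT2 and DH2 together gave 33 raised and 4 lowered genes.

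**Figure D5:**
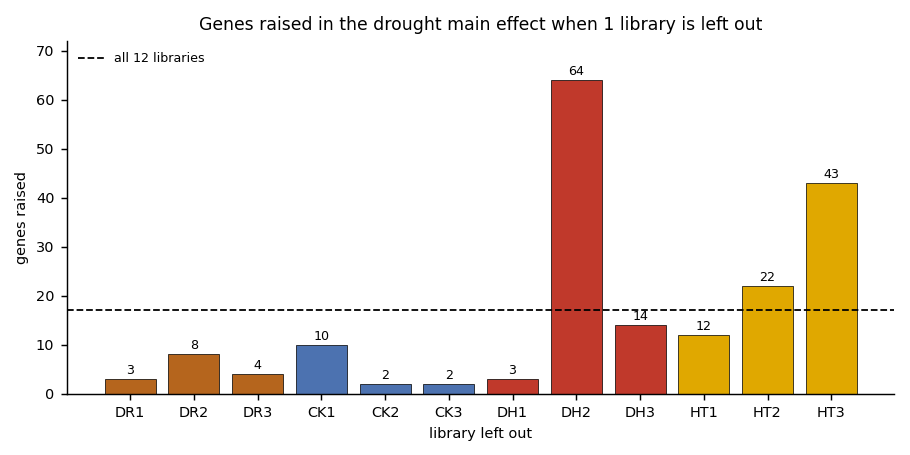
Number of genes raised in the drought main effect when 1 library is left out (bars, coloured by group), with the 17 of all 12 libraries as a dashed line. The count is lowest without CK2 or CK3 (2 each) and highest without DH2 (64).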

How the data were processed

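Equal amounts of leaf and storage-root RNA were mixed and sequenced as 12 libraries. Per the labels, cutadapt 1.9, HISAT2 2.0.4 and StringTie 1.3.4d were used for trimming, alignment and quantification, and the authors deposited an FPKM for each locus in each library. FPKM correct for length and library size. The deposited sums were 1088868 to 1472561 FPKM per library, and since no counts were used here, the counting error of a gene is unknown.

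Fits used limma 3.58.1 in R 4.3.3 on log2(FPKM + 1) for the 12295 loci that reached 1 FPKM in 3 libraries or more (1087 lack DR2). All fold changes are on this scale, which understates changes of low genes. Each contrast was fitted as a coefficient of its own (eBayes with trend, two-sided). The group-mean fit of the same libraries gave DR against CK, DH against HT and the interaction. Deviations of the 3 same-numbered CK and DR pairs from their group means correlated at 0.19 to 0.60, while CK3 correlated at 0.50 with DR2. The numbers therefore do not clearly pair the libraries, and the labels give no pairing. The main fits used no block, and a block on the number was run as an alternative. Not every same-numbered pair among the other groups exceeded 0.1. The fit was tested on simulated data. Summaries used Python 3.11.15 and pandas 2.3.3.

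Symbols and the 24 lists (147 genes) come from the study's tables, which were made on these samples, and members, lists and tests were chosen with earlier results of these data known. Named were up to 10 raised and 10 lowered genes with a symbol, 2 without, every called list member and up to 4 others of each list, with exceptions marked. None of the IDs matched the RefSeq table of another assembly.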

Additional observations from a re-analysis of the deposited data

Results flagged for a closer look

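Among the 17 raised genes 6 sides of the drought comparison had a library set apart from the rest, judged by the gap to its nearest neighbour as a share of the range of that side on the log2 scale. There were 33 sides examined, and chance alone sets about 1 in 20 apart. DH2 was low among the 6 drought libraries for both CHIT1B loci, with 14.4 FPKM for G47455 (gap 0.75 of the range) and 17.6 FPKM for G27895 (0.74). CK1 was high among the 6 libraries without drought for At3g01520 (MSTRG.4731; 11 FPKM, 0.83) and for MSTRG.9010 (3.03 FPKM, 0.63). HT1 was high for MSTRG.21000 (3.88 FPKM, 0.64). HT3 was the only library without drought above 0 for SHSP-2 (MSTRG.4626; 0.17 FPKM, 1.0).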

How the results depend on the processing

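The direction of the drought change stayed the same under every alternative tried for the 89 genes picked by the naming rule. That rule took uncalled list members only at a large change or with a call in another contrast, which favours a stable sign. Other list members could change sign: 5 of 14 chaperones and heat regulators were below 0 in the main fit, and 1 under upper-quartile scaling. The calls changed: of 2449 values recomputed for the 89 genes, 173 lost a call and 56 gained one. Relative to 17 raised and 0 lowered genes, the drought main effect gave 3 raised with a pseudocount of 0.01, 1 without a filter, 2 with an FPKM of at least 1 in 6 libraries, 11 with a mean FPKM of at least 5, 4 with only genes listed in all 12 libraries and 2 with eBayes without trend. It gave 73 under upper-quartile scaling, 70 under quantile scaling, 47 with the sum taken without the 10 most abundant genes, 48 under median-of-ratios scaling, 79 with array weights and 26 with the interaction term in the fit, and all 17 genes were among the calls under these 4 scalings and with array weights. Lowered genes numbered 1 with a pseudocount of 0.1, under quantile scaling and with the interaction term, and 17 with array weights. Without CK3, HT2 and DH2 together, an alternative chosen after seeing the data, 33 were raised, 4 lowered, 1 lowered in DH against HT and 3 passed for the interaction. With 1 library left out the main effect ranged from 2 to 64 raised and 0 to 6 lowered, DR against CK from 27 to 105 and 3 to 38, DH against HT from 0 to 3 and 0 to 52, the interaction from 0 to 50 and drought less heat from 0 to 9.

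DR against CK raised 17 genes without a filter, 121 under upper-quartile scaling, 120 under quantile scaling and 730 with array weights. It lowered 13 with a pseudocount of 0.1, 4 with 0.01, 5 without a filter, 10 with only the 6 libraries compared, 60 under upper-quartile, 69 under quantile and 59 under median-of-ratios scaling, 43 without the 10 most abundant genes and 249 with array weights. DH against HT raised 3 under upper-quartile scaling and without the 10 most abundant genes, 2 under quantile and median-of-ratios scaling and 1 with array weights. The interaction passed for 2 genes with a pseudocount of 0.1, 5 with 0.01 and 478 with array weights. Drought less heat passed for 0 genes with a pseudocount of 0.01, without a filter, with the filter of 6 libraries and with genes listed in all 12 libraries, 3 with a mean FPKM of at least 5, 2 with eBayes without trend and 695 with array weights. The cause of these shifts was not tested.

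With the replicate number as a block the main effect gave 24 raised and 1 lowered, and DR against CK 110 and 41, and 3 genes passed for drought less heat. The block left the counts of DH against HT and of the interaction at 0. Over all 4 groups deviations of same-numbered libraries correlated at -0.12 to 0.60 (median 0.17 over 18 pairs), against -0.66 to 0.50 (median -0.07 over 36 pairs) for different numbers, so not every pair exceeded 0.1. Depth limits all of this: no counts were used, and a gene listed at 0 may be unsampled.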

Other observations

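Nitrogen metabolism, which the comparison above leaves aside, gave 0 calls of 5 in the main effect and 1 raised in DR against CK. Of all genes 0.138% were raised in the main effect and 0.586% in DR against CK. AS (G10463), an asparagine synthetase, had 19.7, 26.8 and 74.4 FPKM in DR, against 0.04, 0.27 and 1.76 FPKM in CK, and 21.6, 0.34 and 22 FPKM in DH, against 5.94, 0.15 and 17.6 FPKM in HT. DR and CK did not overlap, and DH and HT did. Its main effect was 2.63 ± 0.87 (limma, adjusted p = 0.41). ARGAH1 (G7764), an arginase, had 2.73, 6.42 and 14.8 FPKM in DR, against 0, 0.12 and 0 FPKM in CK, with a log2 change of 2.87 (limma, adjusted p = 0.044) in DR against CK and -0.01 in DH against HT. The interaction did not pass for AS or ARGAH1 (limma, adjusted p = 0.88 and 0.69). GOLS2 (G19634), a galactinol synthase that opens raffinose synthesis, had 14.2, 12.4 and 25.3 FPKM in DR, against 2.16, 1.15 and 0.98 FPKM in CK. In DH it had 32.95, 5.25 and 35.9 FPKM, against 11.8, 0.31 and 41.5 FPKM in HT, so DH and HT overlapped. Its main effect was 2.02 ± 0.77 (limma, adjusted p = 0.60). The other copy, GOLS2 (G45635), had 1.23 (limma, adjusted p = 0.82) and was highest in HT3, at 59.7 FPKM. All 4 raffinose genes tested had a positive change, against 28.7% of all genes, with a median of 1.19, against -0.31. PAO (G37287), the oxygenase that opens the chlorophyll ring during leaf senescence, had 52.2, 37.5 and 48.4 FPKM in DR, against 3.77, 4.78 and 9.27 FPKM in CK, and 50.4, 22.9 and 77.5 FPKM in DH, against 5.94, 62.9 and 18.5 FPKM in HT. Its main effect of 1.99 ± 0.69 did not pass (limma, adjusted p = 0.47).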
